A study of Homo sapiens with 2 samples.

Results

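The 10 receptor genes described here encode G protein-coupled receptors through which mast cells sense acid, complement fragments, prostaglandin E2, sphingosine 1-phosphate, adenosine and basic peptides. They are GPR65, ADGRE2 (formerly EMR2), C3AR1, C5AR1, PTGER2, PTGER3, PTGER4, S1PR1, MRGPRX2 and ADORA2B. They were chosen by name, with earlier results of these arrays known, and all probe sets annotated to them were taken. That gave 21 of the 54675 probe sets and 10 of the 19775 genes named by 1 symbol. HMC1 is an established human line from mast cell leukaemia. Cells of this line were sorted with an antibody against CD2 into a subclone with and a subclone without CD2 at the surface, and total RNA of each was hybridised to 1 Affymetrix U133 Plus 2.0 array. No other treatment, genotype or time point is labelled, and the labels do not say whether a subclone grew from a single cell. With 1 array per group no value below has an error between cultures, no test was possible, and every difference compares these arrays only.

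Receptors of this class cross the plasma membrane and, once bound by their ligand, activate a heterotrimeric G protein inside the cell. Those coupled to Gs raise cyclic AMP through adenylyl cyclase, which in mast cells generally restrains mediator release. Receptors coupled to Gi or Gq instead lower cyclic AMP or raise calcium through phospholipase C beta, and several of these promote migration or degranulation.

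Of the 10 receptor genes, 4 reached the floor used for comparing genes, an intensity of 64 on the higher array, and all 4 read higher in the CD2-positive than in the CD2-negative subclone. GPR65, the proton-sensing receptor, was 3.19-fold higher. ADGRE2, an adhesion-type receptor, was 1.78-fold higher, the adenosine receptor gene ADORA2B 1.52-fold and the C3a receptor gene C3AR1 1.498-fold. Among all 3564 genes at or above the floor, 1.21% were at least 2-fold higher and 0.758% at least 2-fold lower. Of the 4 receptor genes 1, GPR65, was past 2-fold, on the higher side. A difference above 0 was measured for 41.9% of all genes compared. The median log2 difference, always CD2-positive minus CD2-negative, was 0.72 over the 4 receptor genes and -0.05 over all genes compared. The genes were picked from results that include these values, so the counts describe them and support nothing further.

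**Figure D1:**
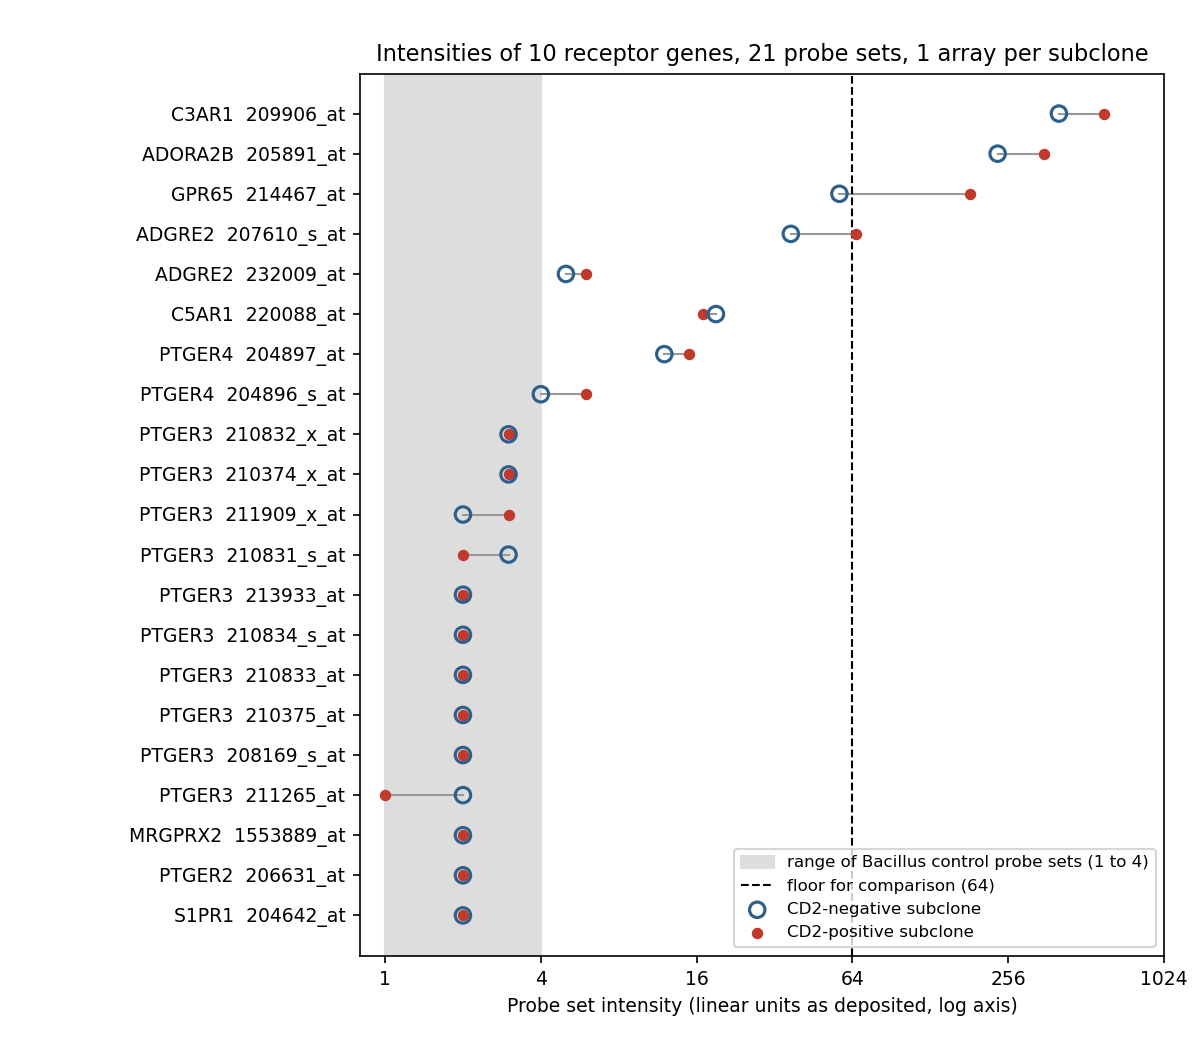
Intensities of all 21 probe sets of the 10 receptor genes, in linear units on a log axis, with the CD2-positive array as filled red points and the CD2-negative array as open blue circles. The grey band is the range of the Bacillus control probe sets (1 to 4) and the dashed line the floor of 64. The 4 probe sets that reach the floor all have the red point to the right, and 13 probe sets lie inside the grey band on both arrays.

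The sequences just upstream of the receptor genes at or above the floor are shown because these genes read higher together. They were taken from RefSeq (GRCh38.p14), whose promoter table held 8 of the 10 genes, among them 3 of those at the floor. Each is the 250 bases before the annotated gene start, written 5′ to 3′ on the strand of the gene. Capitals mark matches to GATAA, the core recognised by GATA factors, on either strand, where the other strand reads TTATC.

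GPR65, chr14:88004885-88005134, plus strand: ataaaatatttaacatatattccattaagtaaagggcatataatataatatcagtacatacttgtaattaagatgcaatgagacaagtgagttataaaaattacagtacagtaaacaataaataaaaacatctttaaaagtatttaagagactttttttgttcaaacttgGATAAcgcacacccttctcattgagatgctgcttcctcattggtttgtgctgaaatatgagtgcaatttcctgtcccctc

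C3AR1, chr12:8066360-8066609, minus strand: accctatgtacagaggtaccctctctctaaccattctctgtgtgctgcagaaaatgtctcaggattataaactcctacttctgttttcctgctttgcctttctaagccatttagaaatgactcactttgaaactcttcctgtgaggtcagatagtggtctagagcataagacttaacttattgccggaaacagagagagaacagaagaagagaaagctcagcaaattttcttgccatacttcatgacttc

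ADORA2B, chr17:15944880-15945129, plus strand: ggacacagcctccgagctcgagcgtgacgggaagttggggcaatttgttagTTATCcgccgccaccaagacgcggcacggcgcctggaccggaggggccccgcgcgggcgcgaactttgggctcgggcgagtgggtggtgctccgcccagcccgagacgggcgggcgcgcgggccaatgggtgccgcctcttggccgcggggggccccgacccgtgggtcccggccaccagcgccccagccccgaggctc

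GPR65 held 1 match to GATAA, starting 80 bases before the gene start, and ADORA2B held 1 on the opposite strand, beginning 199 bases before it. C3AR1 held none. Of 35114 RefSeq promoters cut to the same 250 bases, 20.4% held at least 1 match. MRGPRX2, whose probe set lay at the level of the Bacillus controls, also held 1 GATAA match, 71 bases before its start. None of the 8 upstream sequences held CATGTG (its other strand reads CACATG; found in 9.42% of promoters), CACGTG (6.35%) or the cyclic AMP response element TGACGTCA (1.65%). CATGTG and CACGTG are hexamers bound by MITF and related factors. The windows differed in base composition. GPR65 had 29.6% G and C, C3AR1 40.8% and ADORA2B 75.2%, against a median of 58.0% over all promoters. A match is a string of letters in this window and was not tested as a binding site.

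GPR65 encodes a receptor that is activated by extracellular acid and couples mainly to Gs. Its single probe set read 182 with surface CD2 and 57 without it, a log2 difference of 1.67. The values are deposited as whole numbers, and rounding alone allows a fold between 3.16 and 3.23. Only the CD2-positive array reached the floor of 64. The difference ranked at place 12 from the most positive among the 3564 genes compared. Of 1512 other genes whose mean log2 level lay within 0.5 of that of GPR65, 2 had a difference at least as large, and the central 95% of them lay between -0.63 and 0.66. The gene was past 2-fold under every floor, centring, probe set rule and offset listed under the processing alternatives, with log2 differences from 1.44 to 1.86. Most of these could not change the result. With 1 plain probe set the probe set rules return the same value, the median over all probe sets was 0, and 182 clears every floor used. The offset lowered the difference to 1.44, and centring on the hybridisation controls raised it to 1.86.

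Other proton-sensing receptors were at the level of the controls. GPR4 and GPR132 each read 3 on both arrays. GPR35, an orphan-type receptor in the same list and not a proton sensor, read 31 against 18, below the floor.

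ADGRE2 encodes an adhesion-type receptor with a long extracellular part that binds chondroitin sulfate, and an inherited variant of it is known from vibratory urticaria, a mast cell disorder. One of its probe sets gave 66 on the CD2-positive array and 37 on the other, a log2 difference of 0.83, with a rounding range of 1.75-fold to 1.82-fold. It passed the floor by 2 intensity units and only on the CD2-positive array. The other ADGRE2 probe set read 6 and 5, a log2 difference of 0.26 that rounding alone could place anywhere from 0.00 to 0.53. The brighter probe set carries the _s suffix, which Affymetrix uses for sets whose probes can match more than 1 transcript. Among 567 other genes of similar level, 24 (4.23%) had a difference at least as large. The mean log2 level of ADGRE2 was 5.63, below the floor of 6. Genes with a mean below 6 were compared only if their higher array reached 6, which itself requires a difference. The 4.23% thus depends on the filter and does not measure how unusual the ADGRE2 difference is. Centred on the hybridisation controls the log2 difference became 1.02, just past 2-fold. With the mean of both probe sets it was 0.55 and below the floor.

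Relatives of ADGRE2 had smaller differences on these arrays. ADGRE5, which encodes the leukocyte adhesion receptor CD97, read 182 against 153 (log2 difference 0.25) with a single probe set. ADGRE1 read 9 against 7, and ADGRE3 read 2 on both arrays. No spread between cultures is available to say whether the differences of ADGRE2 and ADGRE5 are distinct.

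C3AR1 and C5AR1 encode the receptors for the complement fragments C3a and C5a, which attract and activate mast cells through Gi. C3AR1 read 602 with and 402 without surface CD2, both above the floor. Its log2 difference was 0.58, and rounding allows 0.58 to 0.59. Of 284 other genes of similar level, 14 (4.93%) had a difference at least as large. C5AR1, the receptor gene for C5a, read 17 on the CD2-positive and 19 on the CD2-negative array. These values lay below the floor and above the Bacillus controls, and the log2 difference of -0.16 became 0.02 once centred on the hybridisation controls. C5AR2, the second C5a receptor gene, read 2 on both arrays, and the formyl peptide receptor genes FPR1, FPR2 and FPR3 read 2 to 4.

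ADORA2B encodes a low-affinity adenosine receptor that couples to Gs and Gq and is known from HMC1 cells for adenosine-driven cytokine release. Its single probe set read 353 in cells with surface CD2 and 233 in cells without, a log2 difference of 0.60. Rounding leaves a fold between 1.51 and 1.52. Among 531 other genes of similar level, 20 (3.77%) had a difference at least as large. ADORA2B, GPR65 and ADGRE2 were thus past a 1.5-fold rule, which 4.24% of all genes compared passed upward, while C3AR1 at 1.498-fold cannot be placed on either side of it, since its rounding range runs from 1.494-fold to 1.501-fold. ADORA3, an adenosine receptor gene long known from rodent mast cells, read 16 against 11, and ADORA1 read 4 against 5, both below the floor. ADORA2A was not analysed here.

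**Figure D2:**
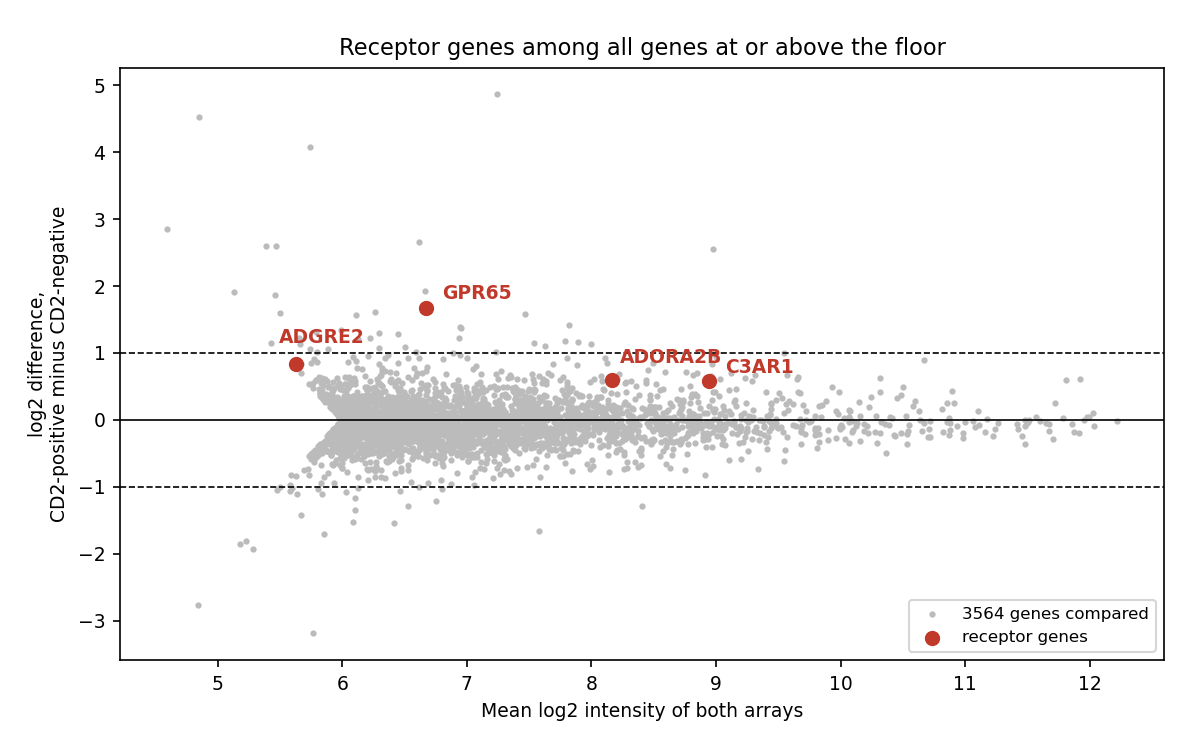
Log2 difference (CD2-positive minus CD2-negative) against mean log2 intensity for the 3564 genes at or above the floor (grey), with the 4 receptor genes in red and dashed lines at 2-fold. GPR65 at 1.67 lies above the upper dashed line, and ADGRE2 (0.83), ADORA2B (0.60) and C3AR1 (0.58) lie between it and 0.

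The prostaglandin E2 receptors differ in the G protein they use: PTGER2 and PTGER4 encode receptors coupled to Gs, and PTGER3 encodes one coupled mainly to Gi that enhances mast cell activation. Of these 3 genes only PTGER4 had a probe set above the Bacillus controls. Its brighter probe set read 15 on the CD2-positive array against 12, a log2 difference of 0.32 with a rounding range from 0.21 to 0.43. Its other probe set read 6 against 4 (0.58, rounding range 0.29 to 0.89). Both probe sets leaned the same way, and both lay below the floor. PTGER2 read 2 on both arrays. PTGER3 was covered by 10 probe sets, more than any other of these genes, and all of them read 1 to 3. They were equal on both arrays in 7 cases, higher on the CD2-positive array in 1 and higher on the CD2-negative array in 2. The largest of these differences, 1 against 2, spans 1-fold to 5-fold under rounding alone, so no difference was detectable.

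S1PR1 and MRGPRX2 were also at the level of the controls. S1PR1 encodes a Gi-coupled receptor for sphingosine 1-phosphate that guides mast cell and lymphocyte migration, and its probe set read 2 on both arrays. MRGPRX2 encodes the receptor for substance P and other cationic secretagogues and marks connective tissue mast cells of the skin. Its probe set also read 2 and 2. At such values rounding alone covers folds from 0.60 to 1.67, and a probe set near the control level gives no evidence on whether a few transcripts are present. Relatives of both were similarly low: MRGPRX1, MRGPRX3 and MRGPRX4 read 2 on both arrays, MRGPRF 4, and S1PR3 and S1PR5 3. S1PR2 read 11 against 12 and S1PR4 8 on both, all below the floor.

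By level, then, 4 of the 10 receptor genes lay at or above the floor, 2 (PTGER4 and C5AR1) between it and the Bacillus controls, and 4 (PTGER2, PTGER3, S1PR1 and MRGPRX2) at the level of those controls. Of all 19775 genes 18% reached the floor. Among 70 measured genes of 8 lists of related receptors, 1 (ADGRE5) reached it and 41 lay at the level of the controls. These lists do not hold all receptors of this class. Outside them ADGRD1 (244 against 219), CXCR4 (325 on both arrays), GPR160 (85 against 79) and GPRC5C (180 against 229) also reached the floor. These are examples, as is CELSR3 (76 against 78), and not a full list. PTAFR, the platelet-activating factor receptor gene, read 36 against 13 (2.77-fold), below the floor of 64 and above one of log2 5. Its values are from the brightest of 3 probe sets, and it was singled out after they were seen.

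Neighbouring genes are given to show whether the stretch of chromosome around a receptor gene differed as a whole. For each receptor gene at or above the floor, the 10 nearest such genes on either side in the RefSeq order were taken. The 20 neighbours of GPR65 on chromosome 14 had a median log2 difference of -0.04, and 9 were positive. GALC, directly before GPR65 in this order, had the largest at 0.92 (380 against 201). GALC and RIN3 (0.71) lay above the central 95% of all genes compared, which ran from -0.68 to 0.70. The lowest neighbour was at -0.65. None of the 20 reached the difference of GPR65. The neighbours of ADGRE2 on chromosome 19 had a median of 0.01, again with none as large. C3AR1 on chromosome 12 had neighbours with a median of 0.11, of which 5 differed by at least as much as C3AR1 itself. For ADORA2B on chromosome 17 the neighbours' median was 0.10 and 2 of 20 were at least as large.

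**Figure D3:**
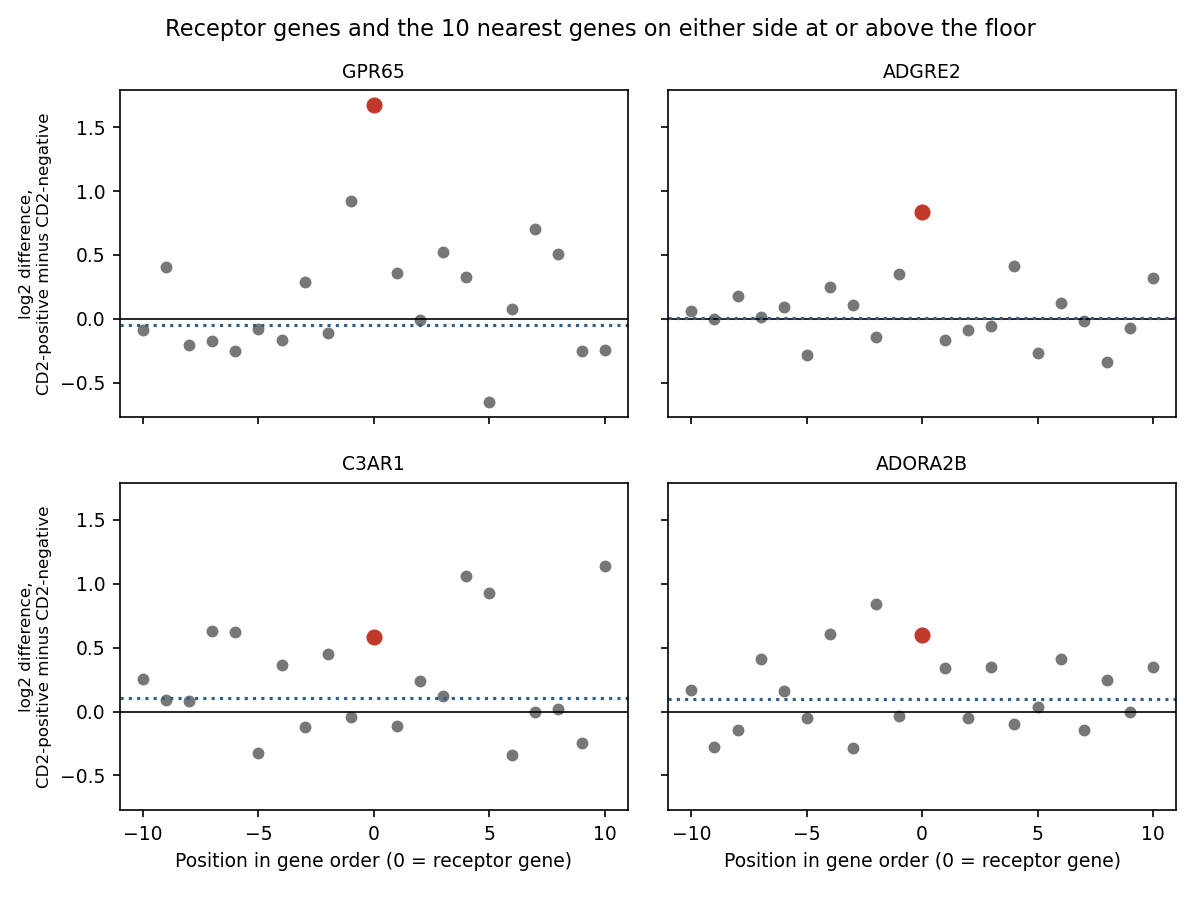
Log2 difference (CD2-positive minus CD2-negative) of each receptor gene at or above the floor (red, position 0) and of the 10 nearest genes on either side (grey), in gene order. The dotted line is the neighbours' median, which lies between -0.04 and 0.11 in the 4 panels, and GPR65 and ADGRE2 stand above all of their neighbours.

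Among the partners that carry the receptors' signal, GNAQ was the 1 gene at or above the floor and past 2-fold. Of 80 measured genes for G proteins, their regulators, the cyclic AMP machinery, phospholipase C beta and phosphoinositide 3-kinase gamma, 19 were at or above the floor. Their differences were positive in 9, negative in 9 and 0 in 1, with a median of 0.00. The 1 of 19 past 2-fold stands beside the 1.21% of all genes compared that were at least 2-fold higher. GNAQ encodes an alpha subunit that activates phospholipase C beta. The gene read 132 against 62 (log2 difference 1.09), at the floor only on the CD2-positive array. Its second probe set at the floor read 64 against 29 (1.14), and its other 3, below the floor, gave 0.50 to 1.22. All 5 thus read higher in the CD2-positive subclone. Other alpha subunit genes of the Gq kind did not share the difference. GNA15 read 163 on both arrays, and below the floor GNA11 read 18 against 16 and GNA14 2 on both. With the mean of its 5 probe sets GNAQ was below the floor, and no gene of these lists was then past 2-fold. RGS12, a regulator gene below the floor, read 32 against 15 (1.09), and was singled out after its values were seen. These values are from the brightest of its 10 probe sets, and the others are not given here.

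The G proteins that serve Gs and Gi receptors were close to equal. GNAS, the Gs alpha subunit gene, read 300 against 289 (0.05), and the Gi subunit genes GNAI2 and GNAI3 read 93 against 82 (0.18) and 162 against 178, the latter with -0.14 that turned to 0.05 after centring on those controls. GNB1, a beta subunit gene, had the largest difference among the 3 beta and gamma subunit genes at or above the floor, at 263 against 192 (0.45), while its other probe sets gave 0.34 and 0.01. PIK3R6, a regulatory subunit gene of the phosphoinositide 3-kinase that these receptors activate, read 96 against 63 (0.61). RGS10, which encodes a protein that shortens G protein signals, read 201 against 245 (-0.29).

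Genes of cyclic AMP synthesis, breakdown and effectors had differences near the median of all genes compared (-0.05). Of 26 measured, 5 were at or above the floor, with differences between -0.21 and -0.02 and a median of -0.10. All 5 were below 0, beside 41.9% of all genes compared that were above 0. Their median changed to 0.08 after centring on the hybridisation controls, where 4 of the 5 were positive. With plain probe set identifiers 1 was positive and 3 were negative, with a median of -0.03. CREM, a transcription factor gene of the cyclic AMP response, was farthest from 0 at 457 against 528, and its 4 probe sets at the floor ranged from -0.21 to 0.15. Among genes that cyclic AMP is known to induce, 4 were at the floor, with a median of -0.11 that likewise became 0.07. FOSB, with a single probe set, read 36 against 64 (-0.83), just at the floor and only on the CD2-negative array. NR4A2 read 195 against 196.

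Genes that supply or remove the receptors' ligands had differences under 2-fold. PTGS1, the cyclooxygenase gene at the head of prostaglandin synthesis, read 995 against 652 (0.61), and its 4 probe sets, all at the floor, gave 0.59 to 0.71. ABCC4, a transporter gene that exports prostaglandin E2, read 225 against 176 (0.35), and the synthase gene PTGES3 read 694 against 747. Of the sphingosine 1-phosphate genes SGPL1, the lyase, read 67 against 94 (-0.49). No gene of adenosine supply reached the floor. CD55, a surface inhibitor of complement, read 447 against 398 (0.17).

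**Figure D4:**
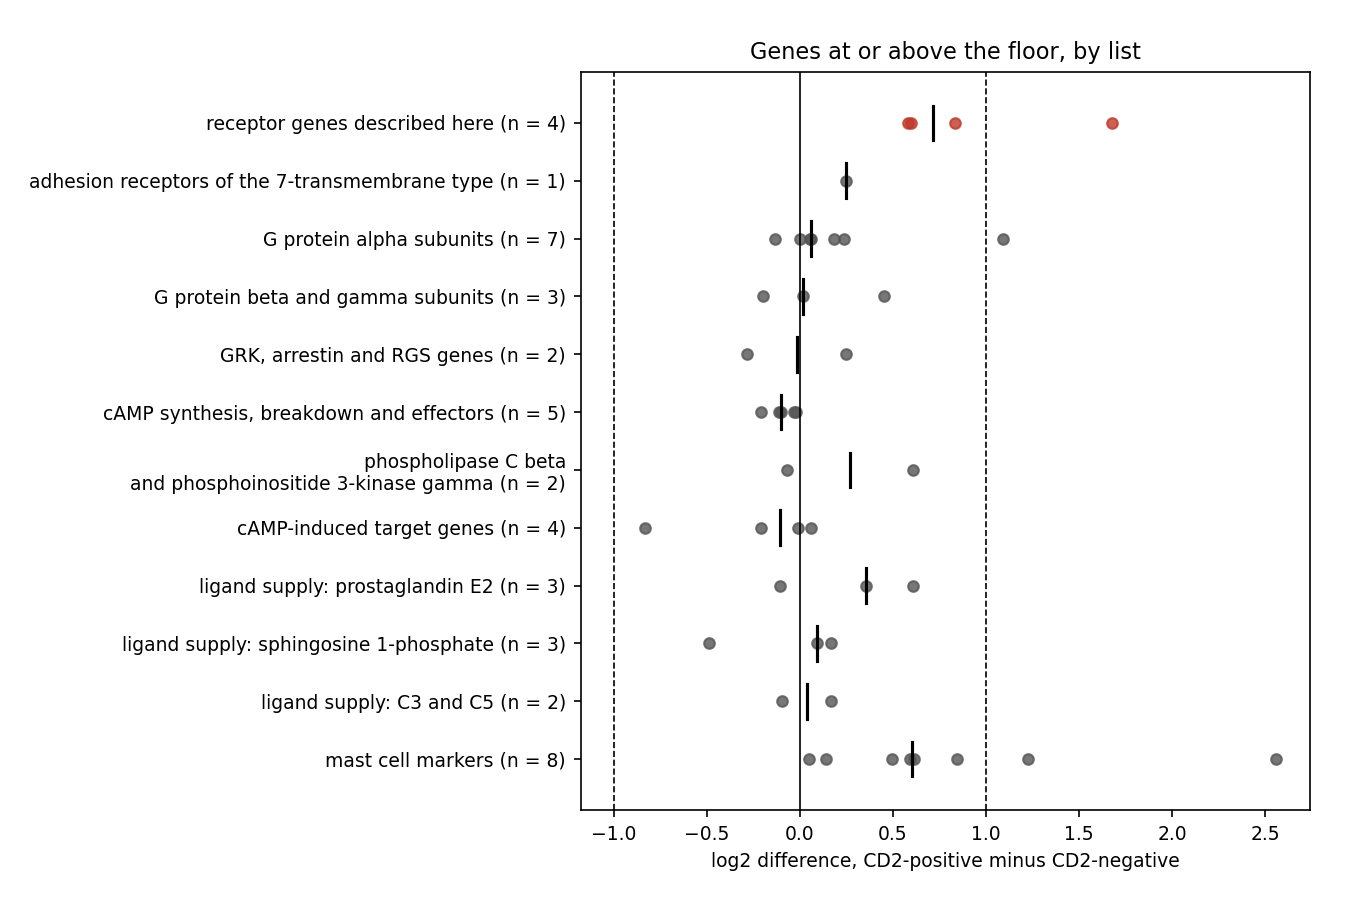
Log2 difference (CD2-positive minus CD2-negative) of genes at or above the floor in the receptor group (red) and in lists of related receptors, signalling partners, ligand supply and mast cell markers (grey), 1 point per gene with list medians as black bars and dashed lines at 2-fold. The receptor genes span 0.58 to 1.67, and GNAQ is the only signalling gene past a dashed line.

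CD2, the antigen of the sort, followed the labels at 219 against 13. Mast cell markers differed in the same direction as the 4 receptor genes: 8 of 10 measured markers were at or above the floor, all 8 with positive differences and a median of 0.60. Over all genes compared 41.9% were positive, with a median of -0.05. FCER1A, below the floor, read 27 against 8. All 10 measured markers summed to 14202 against 9233. The largest parts came from the tryptase genes TPSAB1 (4806 against 3142) and TPSB2 (4415 against 2929). CPA3, a granule carboxypeptidase gene, read 1220 against 207, and HPGDS, the prostaglandin D synthase gene, 187 against 80. KIT, the stem cell factor receptor gene, read 1373 against 1328. The chymase gene CMA1, a marker of connective tissue mast cells, read 2 on both arrays. The part of the mast cell genes in the receptor differences was not tested. In bulk RNA a larger share of cells of 1 kind and more RNA per cell cannot be told apart.

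C3AR1, C5AR1 and ADGRE2 are also known from monocytes, macrophages and granulocytes. All 8 measured markers of monocytes, macrophages and dendritic cells, among them CD14, CSF1R and LYZ, lay at the level of the Bacillus controls on both arrays, with a summed intensity of 21 on each. Of 9 measured neutrophil, eosinophil and basophil markers 5 lay at that level and 1, PRG2, which encodes a major granule protein of eosinophils, was above the floor at 2213 against 1194 (1.85-fold). The list summed to 2249 against 1242, nearly all of it from PRG2. Among its other genes EPX read 3 on both arrays, CLC 2 against 3 and CXCR2 15 against 25. T and NK cell markers summed to 30 and 32 over 9 genes and B cell markers to 22 and 20 over 5 genes, with none at the floor. The 18 spiked-in hybridisation controls were all dimmer in the CD2-positive sample, by a median log2 difference of -0.18. Centring on them moves the median of all genes compared from -0.05 to 0.14 and the split of genes past 2-fold from 43 higher and 27 lower (61.4% higher) to 71 and 14 (83.5%).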

How the data were processed

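Each deposited value is a linear intensity of a probe set. Per the submitters' processing notes, the authors normalised with RMA and used Affymetrix Expression Console 1.1. The return to a linear scale and the rounding to whole numbers were seen in the values only. No source used here gives the kind of background step, so folds against low values are uncertain. Quantile normalisation, part of RMA, removes differences in total signal. No detection calls were used. The number of arrays, 1 per group, limits the precision.

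Gene names came from the platform annotation (41097 of 54675 with 1 symbol, 1801 with several, 11777 unnamed), with symbols updated through RefSeq identifiers for 41043. A gene was represented by its brightest probe set (mean log2 over both arrays). Genes with log2 of at least 6 (intensity 64) on the higher array were compared, and a difference of at least 2-fold was counted. Rounding ranges let each value vary by 0.5. Member genes and 23 lists were chosen with earlier results of these data known. Named by rule were all 10 receptor genes, CD2, KIT, CPA3 and, from each list, up to 4 genes past 2-fold or else the largest difference at the floor. Further genes were named after their values were seen. Calling was tested on simulated data. Python 3.11.15, pandas 2.3.3 and statsmodels 0.14.6 were used.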

Additional observations from a re-analysis of the deposited data

How the results depend on the processing

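All 4 receptor genes at or above the floor kept a positive difference under every alternative that gave a value. For GPR65, C3AR1 and ADORA2B, each with 1 plain probe set, the probe set rules could not change the value. An offset cannot change a sign, and centring on the hybridisation controls raises every difference. Centred on the hybridisation controls, the log2 differences were 1.86 for GPR65, 1.02 for ADGRE2, 0.76 for C3AR1 and 0.78 for ADORA2B. With this centring 2 receptor genes (GPR65 and ADGRE2) were past 2-fold, beside 85 of all 3564 genes compared (2.38%), 71 of them higher. With an offset of 16 added to each intensity, GPR65 had 1.44 and ADGRE2 0.63. ADGRE2 had 0.55 with the mean of its probe sets and 0.26 with plain probe set identifiers only, both below the floor. At a 1.5-fold rule 3 receptor genes were counted. Over all genes, 70 past 2-fold became 39 with the mean of all probe sets, 37 with plain identifiers, 44 with the offset, 125 and 32 at floors of log2 5 and 7, 687 with no floor, 285 at 1.5-fold and 22 at 3-fold. Of those past 2-fold, 61.4% were higher in the CD2-positive subclone, against 24 of 32 at a floor of log2 7 and 44.7% with no floor. Among receptor, signalling and ligand lists, 1 gene past 2-fold became 0 with averaged probe sets and 3 at a floor of log2 5. The mean and plain-identifier settings leave fewer genes at the floor (1783 and 1973). The cause of the other shifts was not tested. No paired analysis was possible because each group holds 1 array. Below the floor, the log2 difference of PTGER4 (0.32) became 0.45 with the mean of its probe sets, 0.50 when centred on the hybridisation controls and 0.15 with the offset. Values near the Bacillus controls allow no fold.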
